A study of Danio rerio with 18 samples.

Results

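The genes described here are the members of the circadian clock and its direct outputs, a set of 41 gene symbols matched by symbol to the rows of the count tables. Of the 41 symbols, 40 had a row and *cry3* had none, a name that RefSeq gives as an older one of *cry2*, which is in the set. *clocka* had 2 rows with different Ensembl identifiers, so the members filled 41 of the 31388 gene rows. 40 of these rows had enough counts to be tested among 23367 genes, and the second *clocka* row, with 0 to 2 reads per library, was not tested. Roles given below are background and were not measured here.

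In the core of the vertebrate clock, Clock and Bmal proteins (*clocka*, *clockb*, *npas2*, *arntl1a*, *arntl1b*, *arntl2*) pair on E-box elements and switch on the *per* and *cry* genes, whose Period and Cryptochrome proteins then repress the pair. In a side loop, Rev-erb repressors (the *nr1d* genes) and Ror activators (the *ror* genes) compete for one element in the *arntl* and other genes. The PAR bZIP activators (the *dbp*, *tef* and *hlf* genes) and the repressor Nfil3 compete for D-box elements, which in zebrafish also carry the response of genes to light. Zebrafish tissues are directly sensitive to light, which induces a subset of clock and DNA repair genes.

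RNA was taken from whole zebrafish larvae at 5 days post fertilization (DPF), as pools of 15 larvae with 3 pools in each of 6 groups, 18 libraries in all. Wildtype (WT) larvae of the ABTL lineage were germ-free (GF), conventionalized (CONVD), that is, given a complex microbial community from 3 DPF, or mono-associated from 3 DPF with *Exiguobacterium* ZWU0009 or with *Chryseobacterium* ZOR0023. The *myd88* mutants (myd88-/-), which lack an adapter of Toll-like receptor signaling, were GF or CONVD. All embryos had first been surface sterilized, and the mutants (the hu3568 allele) were not siblings of the WT larvae, so genotype, parents, and any difference between the experiments in handling or in hours of light before collection cannot be told apart. The methods place all collection at midday, some hours after first light, and no label gives the hour of a library.

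Levels are given as CPM, each library's counts scaled to a common total by TMM library sizes, and a gene was called where edgeR's quasi-likelihood test gave an adjusted p below 0.05 and the fold change was at least 1.3, the thresholds of the study's methods. Total counts per library ranged from 6404744 to 11582884 with *Chryseobacterium*, from 7946202 to 10999402 in WT GF, from 8057429 to 14578628 with *Exiguobacterium*, and from 11787698 to 23600976 in the WT CONVD and mutant groups. The labels call the pools biological replicates without naming separate crosses, so p-values measure the spread between pools. *Chryseobacterium* libraries 1 and 3 stood apart from the other WT libraries on the second principal component of all genes. Members called in comparisons with *Chryseobacterium* are given with and without them. Overlap counts and marker sums of that group are given with all its libraries only. *myd88* itself was at 9.12 to 12.4 CPM in WT GF, 4.32 to 6.02 CPM in the colonized WT and 3.09 to 4.60 CPM in the mutant libraries, and since a mutant transcript can still be counted, this level is no full check of the labels. All 34 marker rows of 12 tissues were detected in every library. The summed markers of 5 of these tissues parted the 6 mutant from the 12 WT libraries: photoreceptors (1717 to 1966 against 2409 to 2827 CPM), neurons (889 to 942 against 1038 to 1149 CPM) and neutrophils (19.3 to 23.9 against 27.3 to 48.0 CPM) were lower in mutants, and lens (5019 to 5714 against 3094 to 4401 CPM) and intestine (698 to 932 against 354 to 656 CPM) were higher. Not every single marker did so. *gnat2* of photoreceptors, *elavl4* of neurons, *lyz* and *mmp13a* of neutrophils, *mipa* of lens, and *fabp2* and *fabp6* of intestine overlapped between the genotypes. Among all genes tested, 25.7% parted these libraries. Some sums also parted colonized from GF libraries. Intestine was at 354 to 493 CPM with *Chryseobacterium* and 522 to 618 CPM in WT GF. In mutants it was at 698 to 782 CPM when CONVD and 838 to 932 CPM when GF. Liver was lower in CONVD than in GF mutants (1751 to 2082 against 2195 to 2365 CPM). It was higher with *Exiguobacterium* than in WT GF (1807 to 2168 against 1292 to 1787 CPM). WT CONVD and WT GF overlapped in both tissues. Macrophage sums, however, were above WT GF (13.7 to 14.4 CPM) in every colonized WT group. They were at 16.4 to 19.0 CPM when CONVD, 14.9 to 15.8 CPM with *Exiguobacterium* and 15.5 to 17.6 CPM with *Chryseobacterium*. Skin was lower with *Chryseobacterium* than in WT GF (6744 to 8980 against 9445 to 10208.5 CPM). Photoreceptors were narrowly higher in CONVD than in GF mutants (1835.5 to 1966 against 1717 to 1835.1 CPM). The part of tissues in the clock gene differences between genotypes or with colonization was not tested. In whole larvae fewer cells of a type and less RNA per cell cannot be told apart.

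The widest differences of the clock genes lay between the genotypes. In GF larvae, 26 of the 40 members (65%) were called between mutants and WT larvae, 15 higher and 11 lower in mutants, where 31.3% of all genes tested were called (16.3% higher and 15.1% lower). In CONVD larvae, 21 members (52.5%) were called, 13 higher and 8 lower, beside 29.7% of all genes (15.2% higher and 14.5% lower). These comparisons share no library. 13 members were higher in mutants in both, 7 were lower in both, and *nr1d4b* was higher in GF and lower in CONVD larvae. Among all 23367 genes tested, 2728 were higher in both, 2438 were lower in both and 31 were called in opposite directions. A difference of 2-fold or more was seen for 10 members (25%) in GF and 6 (15%) in CONVD larvae, beside 8.29% and 7.2% of all genes. The median size of the log2 difference was 0.50 over the members and 0.29 over all genes in GF larvae, and 0.47 and 0.26 in CONVD larvae. 32 members (80%) in GF and 34 (85%) in CONVD larvae did not overlap between the genotypes, beside 53% and 56.1% of all genes. For 22 members (55%) the 6 mutant libraries lay wholly to one side of the 12 WT libraries, 14 above and 8 below, which was so for 25.7% of all genes. Every mutant GF library (13542231 to 16277918 total counts) was deeper than every WT GF library (7946202 to 10999402). The depths of mutant and WT CONVD libraries overlapped. The part of depth in the genotype differences was not tested.

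**Figure D1:**
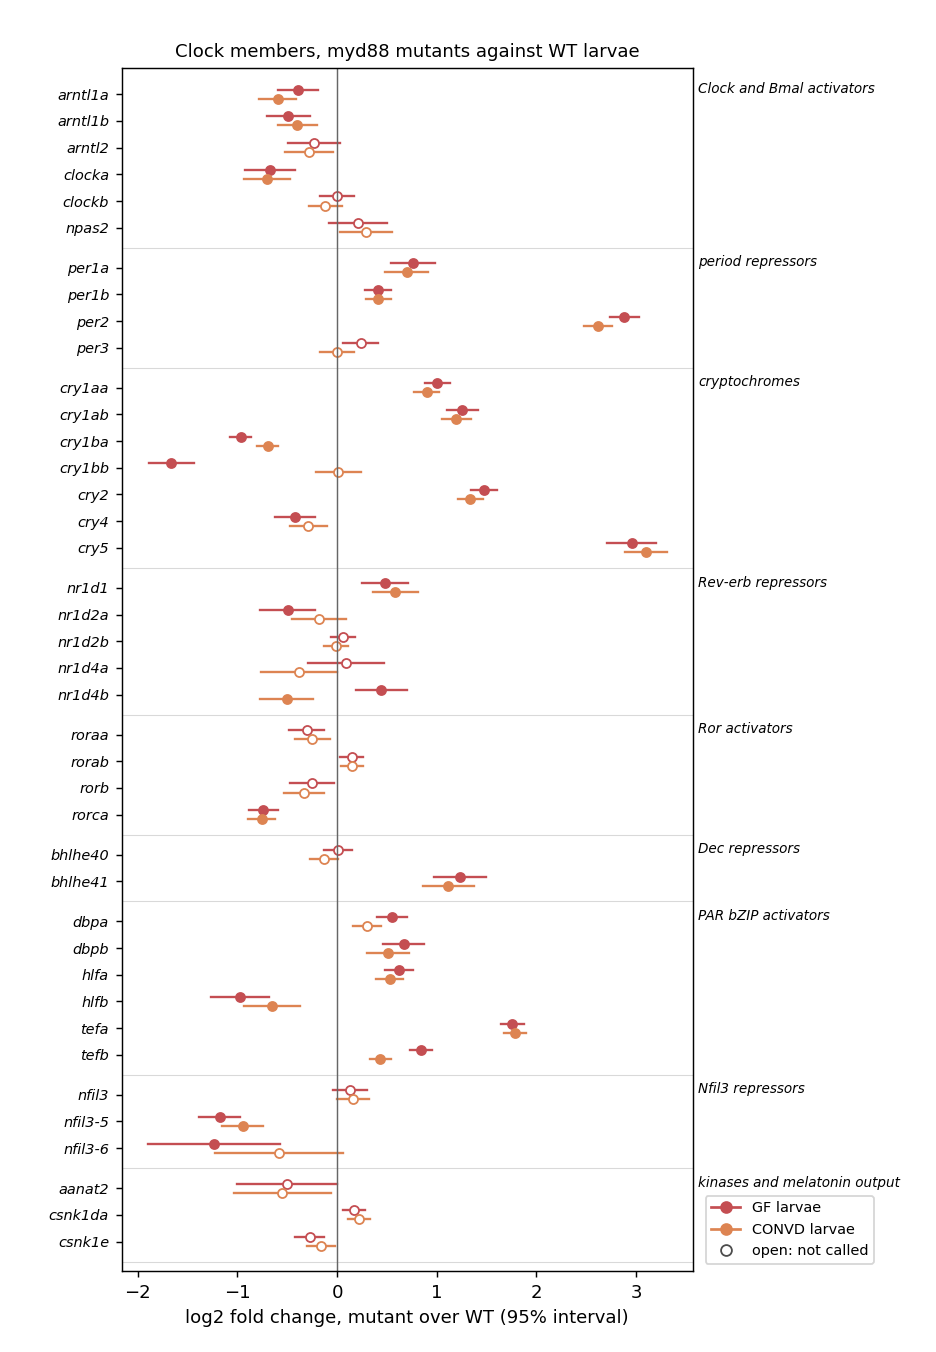
Log2 fold change of *myd88* mutants over WT larvae for the 40 clock members tested, grouped by role, in GF (red) and CONVD (orange) larvae (3 libraries per group). Bars are 95% intervals of the fit and filled points were called. *per2* and *cry5* lie farthest to the right, above 2.5 in both, and most pairs of points lie close together, with *cry1bb* and *nr1d4b* as the exceptions that are farthest apart.

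Of the 4 *per* genes, whose proteins repress Clock and Bmal, 3 were higher in mutants in both comparisons. *per2* (ENSDARG00000034503), the one that light induces in zebrafish, was at 43.96, 53.6 and 49.3 CPM in WT GF, 53.5, 58.4 and 63.97 CPM in WT CONVD, 373, 357 and 348 CPM in mutant GF and 369.7, 350.4 and 365 CPM in mutant CONVD libraries. Every mutant library was several-fold above every WT library. Its log2 fold change over WT larvae was 2.88 (SE 0.07, adjusted p = 5.25e-24) in GF and 2.62 (SE 0.07, adjusted p = 1.42e-23) in CONVD larvae. *per1a* (ENSDARG00000056885) and *per1b* (ENSDARG00000012499) follow the daily cycle in zebrafish tissues. *per1a* was at 84.01, 76.00 and 70.7 CPM in WT GF, 68.7, 62.3 and 53.98 CPM in WT CONVD, 129.7, 131 and 130.02 CPM in mutant GF and 100.1, 99.2 and 99.8 CPM in mutant CONVD libraries. All mutant libraries lay above all WT ones, with log2 fold changes of 0.76 (SE 0.10, adjusted p = 1.43e-05) in GF and 0.70 (SE 0.10, adjusted p = 2.99e-05) in CONVD larvae. *per1b* was at 219, 198 and 201 CPM in WT GF, 180.2, 172 and 164 CPM in WT CONVD, 273, 278 and 271 CPM in mutant GF and 233, 232 and 223 CPM in mutant CONVD libraries. Again the genotypes did not overlap, with smaller log2 fold changes of 0.41 (SE 0.06, adjusted p = 3.4e-06) in GF and 0.42 (SE 0.06, adjusted p = 2.56e-06) in CONVD larvae. The fourth gene, *per3*, was not called and overlapped between the genotypes (55.1 to 75.9 CPM in WT and 66.1 to 81.3 CPM in mutant libraries).

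The 7 cryptochromes tested moved in both directions. *cry5* (ENSDARG00000019498), whose protein belongs to the photolyase branch that repairs ultraviolet lesions with the energy of light, was at 4.46, 6.30 and 5.29 CPM in WT GF, 5.53, 6.26 and 7.07 CPM in WT CONVD, 40.04, 42.7 and 40.2 CPM in mutant GF and 54.6, 54.99 and 53.96 CPM in mutant CONVD libraries. The mutants lay far above the WT larvae, whose libraries held as few as 37 reads. The log2 fold changes were 2.96 (SE 0.12, adjusted p = 2.15e-18) in GF and 3.10 (SE 0.10, adjusted p = 6.92e-21) in CONVD larvae, the largest of the members in CONVD and GF larvae. *cry1aa* (ENSDARG00000045768), a light-induced repressor of the clock in zebrafish, was at 87.7, 96.7 and 91.3 CPM in WT GF, 110.3, 97.1 and 92.4 CPM in WT CONVD, 189, 182 and 182 CPM in mutant GF and 185, 177 and 196 CPM in mutant CONVD libraries. The mutant libraries held all the higher values, and the log2 fold changes were 1.00 (SE 0.06, adjusted p = 5.63e-14) in GF and 0.90 (SE 0.06, adjusted p = 3.8e-13) in CONVD larvae. Its duplicate *cry1ab* (ENSDARG00000011583) was at 31.9, 28.4 and 26.2 CPM in WT GF, 28.2, 28.2 and 27.6 CPM in WT CONVD, 70.2, 66.4 and 70.6 CPM in mutant GF and 65.5, 62.5 and 64.8 CPM in mutant CONVD libraries. The genotypes did not overlap here either, with log2 fold changes of 1.26 (SE 0.08, adjusted p = 4.49e-14) in GF and 1.20 (SE 0.07, adjusted p = 2.96e-14) in CONVD larvae. *cry2* (ENSDARG00000102403) was at 36.4, 38.2 and 38.7 CPM in WT GF, 34.6, 34.5 and 32.5 CPM in WT CONVD, 105, 109 and 101 CPM in mutant GF and 83.96, 84.8 and 88.2 CPM in mutant CONVD libraries. It too was higher in all mutant libraries, by 1.47 (SE 0.06, adjusted p = 5.2e-18) in GF and 1.34 (SE 0.06, adjusted p = 1.82e-17) in CONVD larvae on the log2 scale.

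In contrast, the other duplicate pair and *cry4* were lower in GF mutants, and *cry1ba* in CONVD mutants too. *cry1ba* (ENSDARG00000069074) was at 544, 524 and 487 CPM in WT GF, 519, 515 and 527 CPM in WT CONVD, 259.7, 268 and 267 CPM in mutant GF and 314, 318 and 331 CPM in mutant CONVD libraries. All mutant libraries were below all WT ones, and the log2 fold changes were -0.97 (SE 0.05, adjusted p = 1.49e-15) in GF and -0.70 (SE 0.05, adjusted p = 3.23e-12) in CONVD larvae. *cry1bb* (ENSDARG00000091131) was at 238, 226 and 211 CPM in WT GF and 76.4, 67.03 and 69.5 CPM in mutant GF libraries, without overlap. This gave the largest fall among the members in GF larvae, a log2 fold change of -1.66 (SE 0.11, adjusted p = 3.82e-09). In CONVD larvae the libraries overlapped, at 97.8, 77.2 and 86.2 CPM in WT and 85.3, 86.2 and 91.4 CPM in mutants, with a log2 fold change of 0.01 (95% interval -0.21 to 0.24). *cry4* (ENSDARG00000011890) was at 22.5, 24.1 and 23.1 CPM in WT GF and 18.2, 17.1 and 16.6 CPM in mutant GF libraries. It was called lower in GF larvae only (log2 fold change -0.42, SE 0.10, adjusted p = 0.000803), and the CONVD difference was -0.29 (SE 0.09, adjusted p = 0.0103), under the fold threshold. Whether the *cry4* difference itself changed with conventionalization missed the threshold (log2 0.13, SE 0.13, adjusted p = 0.92).

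**Figure D2:**
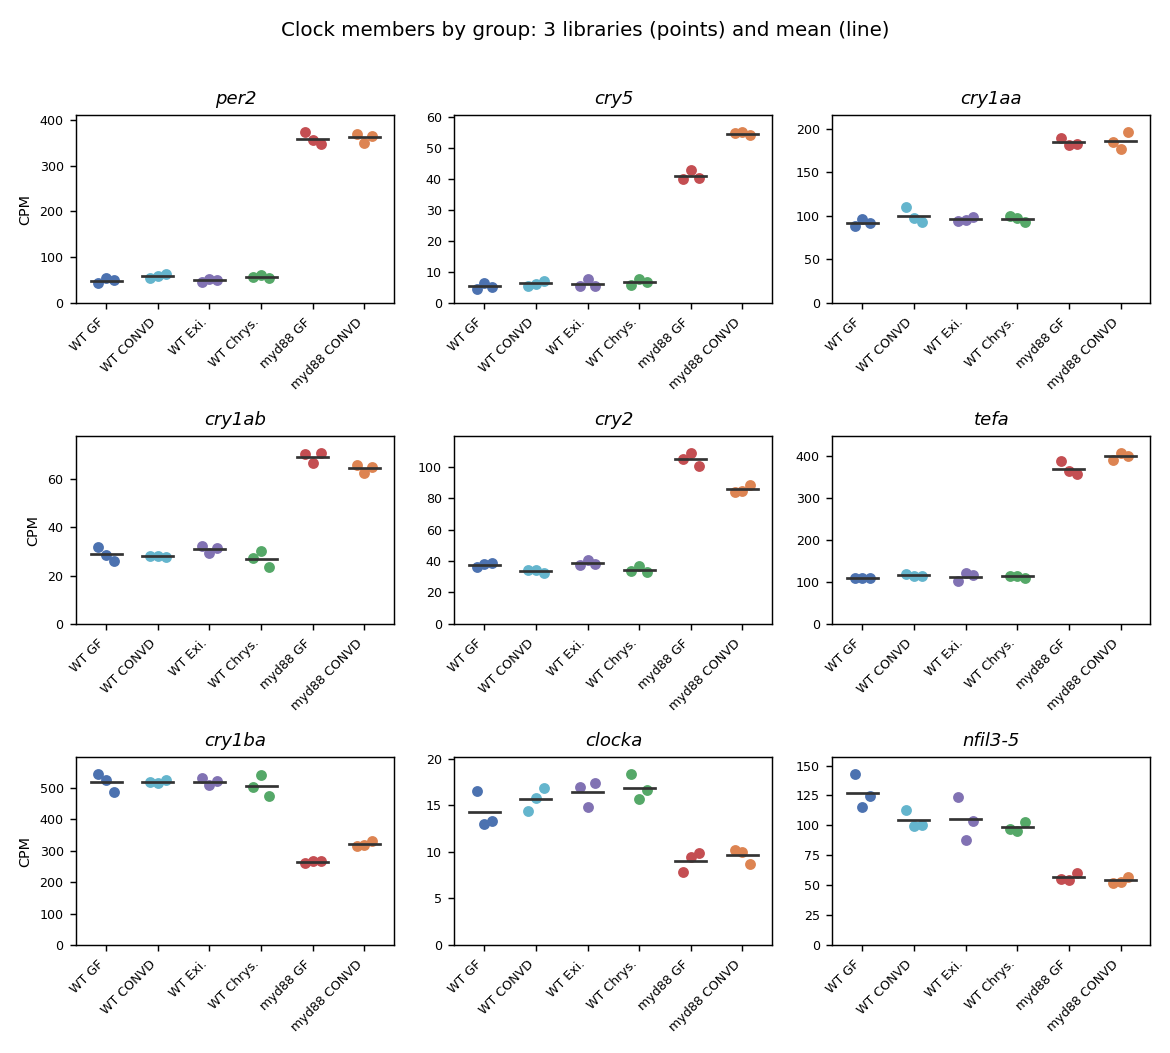
CPM of 9 clock members in each of the 18 libraries (points) with the group means (lines), on linear axes that start at 0. In *per2*, *cry5*, *cry1aa*, *cry1ab*, *cry2* and *tefa* all 6 mutant libraries lie above all 12 WT libraries, and in *cry1ba*, *clocka* and *nfil3-5* they lie below.

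Among the activators Clock and Bmal, 3 of 6 genes were lower in mutants in both comparisons and none higher. *clocka* (ENSDARG00000011703) was at 16.6, 12.98 and 13.4 CPM in WT GF, 14.4, 15.8 and 16.8 CPM in WT CONVD, 7.82, 9.45 and 9.86 CPM in mutant GF and 10.2, 10.01 and 8.71 CPM in mutant CONVD libraries. Every mutant library was below every WT library, with log2 fold changes of -0.68 (SE 0.12, adjusted p = 4.88e-05) in GF and -0.70 (SE 0.11, adjusted p = 8.51e-06) in CONVD larvae. *arntl1a* (ENSDARG00000006791) was at 20.8, 20.4 and 19.8 CPM in WT GF, 21.9, 21.5 and 23.5 CPM in WT CONVD, 15.2, 16.6 and 14.6 CPM in mutant GF and 13.7, 15.1 and 15.7 CPM in mutant CONVD libraries, and *arntl1b* (ENSDARG00000035732) at 19.9, 17.6 and 16.7 CPM in WT GF, 21.9, 18.3 and 20.1 CPM in WT CONVD, 12.04, 13.01 and 13.7 CPM in mutant GF and 16.5, 13.9 and 14.9 CPM in mutant CONVD libraries. Both parted the genotypes in the same direction. The log2 fold changes of *arntl1a* were -0.39 (SE 0.10, adjusted p = 0.00152) in GF and -0.60 (SE 0.09, adjusted p = 4.03e-06) in CONVD larvae. Those of *arntl1b* were -0.49 (SE 0.11, adjusted p = 0.00037) in GF and -0.40 (SE 0.10, adjusted p = 0.00114) in CONVD larvae. These differences were close to the fold threshold: *arntl1a* was no longer called in GF larvae without WT GF 1 (log2 fold change -0.37) or mutant GF 3 (-0.35), nor *arntl1b* in CONVD larvae without WT CONVD 1 (-0.35) or mutant CONVD 2 (-0.34). *clockb*, *npas2* and *arntl2* were not called, with log2 differences between -0.28 and 0.29.

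In the side loop, the repressor gene *nr1d1* (Rev-erb alpha, ENSDARG00000033160) was at 178, 162 and 163 CPM in WT GF, 139.5, 120.04 and 106 CPM in WT CONVD, 239, 229 and 233 CPM in mutant GF and 179, 187 and 180.4 CPM in mutant CONVD libraries. The mutant libraries were all above the WT ones, by a narrow margin between CONVD mutants and the highest WT GF library, with log2 fold changes of 0.48 (SE 0.11, adjusted p = 0.00188) in GF and 0.58 (SE 0.11, adjusted p = 0.000368) in CONVD larvae. Of the other Rev-erb genes, *nr1d2a* (ENSDARG00000003820) was at 391, 288 and 315 CPM in WT GF and 244, 228 and 234 CPM in mutant GF libraries. It was lower in GF mutants (log2 fold change -0.50, SE 0.13, adjusted p = 0.00581), a call that was lost without WT GF 1, the highest library (log2 fold change -0.36, under the fold threshold). In CONVD larvae *nr1d2a* was not called, at 204 to 219 CPM in mutant and 222 to 278 CPM in WT libraries, also lower without overlap. *nr1d2b* and *nr1d4a* were not called, and *nr1d4b* is described with the response to colonization. Of the Ror activators, *rorca* (ENSDARG00000057231) was at 55.8, 54.6 and 49.9 CPM in WT GF, 57.5, 54.1 and 51.4 CPM in WT CONVD, 29.9, 33.9 and 32.3 CPM in mutant GF and 33.4, 30.5 and 32.3 CPM in mutant CONVD libraries. It was lower in all mutant libraries, with log2 fold changes of -0.74 (SE 0.07, adjusted p = 9.86e-10) in GF and -0.76 (SE 0.07, adjusted p = 2.54e-10) in CONVD larvae. *roraa* also parted the genotypes (81.7 to 99.5 CPM in mutant and 101 to 130.4 CPM in WT libraries) but stayed under the fold threshold in both comparisons, and *rorab* and *rorb* were not called. Of the Dec genes, whose proteins also repress Clock and Bmal at E-boxes, *bhlhe41* (ENSDARG00000041691) was at 56.3, 50.4 and 40.5 CPM in WT GF, 40.3, 43.2 and 38.1 CPM in WT CONVD, 116, 115 and 115 CPM in mutant GF and 82.2, 92.1 and 89.5 CPM in mutant CONVD libraries. All mutant libraries were above all WT libraries, and the log2 fold changes were 1.23 (SE 0.12, adjusted p = 9.31e-07) in GF and 1.11 (SE 0.12, adjusted p = 2.09e-06) in CONVD larvae. Its relative *bhlhe40* overlapped between the genotypes (log2 fold changes 0.01 and -0.13).

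Among the D-box factors, most activators were higher and the called repressors lower in mutants. Of the 6 PAR bZIP activators, 5 were higher and 1 lower in GF mutants, and 4 were higher and 1 lower in CONVD mutants. *tefa* (ENSDARG00000039117), which binds D-boxes of light-induced zebrafish genes, was at 108, 110.03 and 109 CPM in WT GF, 119, 113 and 115 CPM in WT CONVD, 387, 364 and 356 CPM in mutant GF and 391, 406 and 399 CPM in mutant CONVD libraries. The genotypes did not overlap, and the log2 fold changes were 1.76 (SE 0.06, adjusted p = 3.83e-21) in GF and 1.78 (SE 0.06, adjusted p = 1.5e-21) in CONVD larvae. *tefb* (ENSDARG00000098103) was at 68.4, 62.5 and 65.2 CPM in WT GF, 86.5, 84.4 and 87.6 CPM in WT CONVD, 118, 115 and 121 CPM in mutant GF and 117, 114 and 118 CPM in mutant CONVD libraries. It was higher in all mutant libraries by 0.84 (SE 0.05, adjusted p = 2.01e-13) in GF and 0.43 (SE 0.05, adjusted p = 8.3e-08) in CONVD larvae on the log2 scale. *hlfa* (ENSDARG00000074752) was at 92.4, 83.7 and 84.8 CPM in WT GF, 98.2, 96.6 and 93.4 CPM in WT CONVD, 141, 135 and 126 CPM in mutant GF and 142, 135 and 139 CPM in mutant CONVD libraries, likewise without overlap, with log2 fold changes of 0.62 (SE 0.07, adjusted p = 1.1e-08) in GF and 0.53 (SE 0.06, adjusted p = 1.24e-07) in CONVD larvae. *dbpb* (ENSDARG00000057652) was at 84.7, 78.7 and 69.1 CPM in WT GF, 63.98, 61.3 and 55.8 CPM in WT CONVD, 131, 116 and 121 CPM in mutant GF and 79.5, 87.6 and 90.9 CPM in mutant CONVD libraries. Within GF and within CONVD larvae the mutants lay above the WT larvae, although CONVD mutants reached down into the range of WT GF larvae, and the log2 fold changes were 0.67 (SE 0.10, adjusted p = 2.59e-05) in GF and 0.51 (SE 0.10, adjusted p = 0.00036) in CONVD larvae. *dbpa* (ENSDARG00000063014) was at 51.5, 52.3 and 46.5 CPM in WT GF and 77.6, 72.9 and 69.8 CPM in mutant GF libraries. It was called in GF larvae (log2 fold change 0.55, SE 0.07, adjusted p = 4.01e-07), and in CONVD larvae the difference of 0.30 (SE 0.07, adjusted p = 0.000891) was under the fold threshold, although its 6 mutant libraries lay above all 12 WT libraries. The exception, *hlfb* (ENSDARG00000061011), was at 14.6, 12.1 and 11.2 CPM in WT GF, 9.87, 10.97 and 8.53 CPM in WT CONVD, 6.05, 5.50 and 7.92 CPM in mutant GF and 7.05, 5.52 and 6.08 CPM in mutant CONVD libraries. It was lower in every mutant library, with log2 fold changes of -0.98 (SE 0.14, adjusted p = 2.14e-06) in GF and -0.65 (SE 0.14, adjusted p = 0.000259) in CONVD larvae.

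The Nfil3 repressors had 2 of 3 genes lower in GF mutants and 1 of 3 in CONVD mutants. *nfil3-5* (ENSDARG00000094965) was at 143, 115 and 124 CPM in WT GF, 113, 99.5 and 100.3 CPM in WT CONVD, 54.98, 54.4 and 59.9 CPM in mutant GF and 52.1, 52.9 and 57.1 CPM in mutant CONVD libraries. All mutant libraries were below all WT libraries, and the log2 fold changes were -1.18 (SE 0.10, adjusted p = 1.74e-08) in GF and -0.95 (SE 0.10, adjusted p = 2.62e-07) in CONVD larvae. *nfil3-6* (ENSDARG00000087188) was at 89.3, 45.9 and 48.2 CPM in WT GF and 28.9, 24.1 and 25.5 CPM in mutant GF libraries. It was called in GF larvae at a log2 fold change of -1.24 (SE 0.30, adjusted p = 0.00528), although WT GF 1 held nearly as much as the other two WT GF libraries together, and without it the log2 fold change was -0.85 and still called. In CONVD larvae the difference was -0.59 (SE 0.30, adjusted p = 0.132). *nfil3* itself was not called (0.13 and 0.16).

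14 of the 40 members were called in none of the 10 comparisons: *clockb*, *npas2*, *arntl2*, *per3*, *nr1d2b*, *nr1d4a*, *roraa*, *rorab*, *rorb*, *bhlhe40*, *nfil3*, *csnk1da*, *csnk1e* and *aanat2*. They are also all the members called in neither genotype comparison, where 14299 of the 23367 genes tested were called in neither. The kinase genes *csnk1da* and *csnk1e*, whose products phosphorylate Period proteins, differed little. *csnk1da* was at 183 to 193 CPM in mutant and 153 to 175 CPM in WT libraries, a difference without overlap whose log2 size was 0.17 in GF and 0.22 in CONVD larvae. *csnk1e* was at 51.4 to 55.7 CPM in mutant and 54.2 to 66.9 CPM in WT libraries. *aanat2*, the enzyme of melatonin synthesis in the pineal gland, rested on 20 to 55 reads per library. It was at 1.70 to 2.99 CPM in mutant and 2.21 to 4.25 CPM in WT libraries, and its log2 difference in CONVD larvae was -0.55 (SE 0.24, adjusted p = 0.06), which did not pass the threshold. Without WT CONVD 2, the deepest library, *aanat2* and *nr1d4a* were also called lower in CONVD mutants.

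Other genes, listed as induced by light in zebrafish or as genes of DNA repair, mostly differed between the genotypes in the same direction as *per2*, *cry1aa* and *cry5*. This mixed list of 10 genes was chosen with earlier results of these data known. In it 8 were tested, of which 7 were higher and 1 lower in GF mutants and 7 were higher in CONVD mutants. Of all genes, 16.3% were higher and 15.1% lower in GF mutants, and 15.2% and 14.5% in CONVD mutants. The median log2 fold change of the 8 was 1.70 in GF and 1.60 in CONVD larvae, where that of all genes was -0.01 in both. *cry-dash*, a single-strand photolyase of the cryptochrome family, was at 13.1 to 16.6 CPM in WT and 68.4 to 76.2 CPM in mutant libraries. *xpc*, a sensor of DNA damage, was at 8.37 to 11.1 CPM in WT and 40.3 to 54.5 CPM in mutant libraries. Both genes were several-fold higher in every mutant library. The log2 fold changes of *cry-dash* were 2.27 (SE 0.08, adjusted p = 3.35e-20) in GF and 2.25 (SE 0.07, adjusted p = 2.48e-21) in CONVD larvae. *lonrf1l*, which encodes a LON peptidase and RING finger domain protein, was at 65.8 to 90.6 CPM in WT and 287 to 353 CPM in mutant libraries. The gene that was lower in GF mutants, named after its values were seen, was *polh*, a polymerase that copies past DNA damage (log2 fold change -0.57, SE 0.15, adjusted p = 0.00224). None of the 8 was called in any comparison between colonized and GF larvae or among colonized WT groups. What light each library's larvae had received before collection was not measured.

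**Figure D3:**
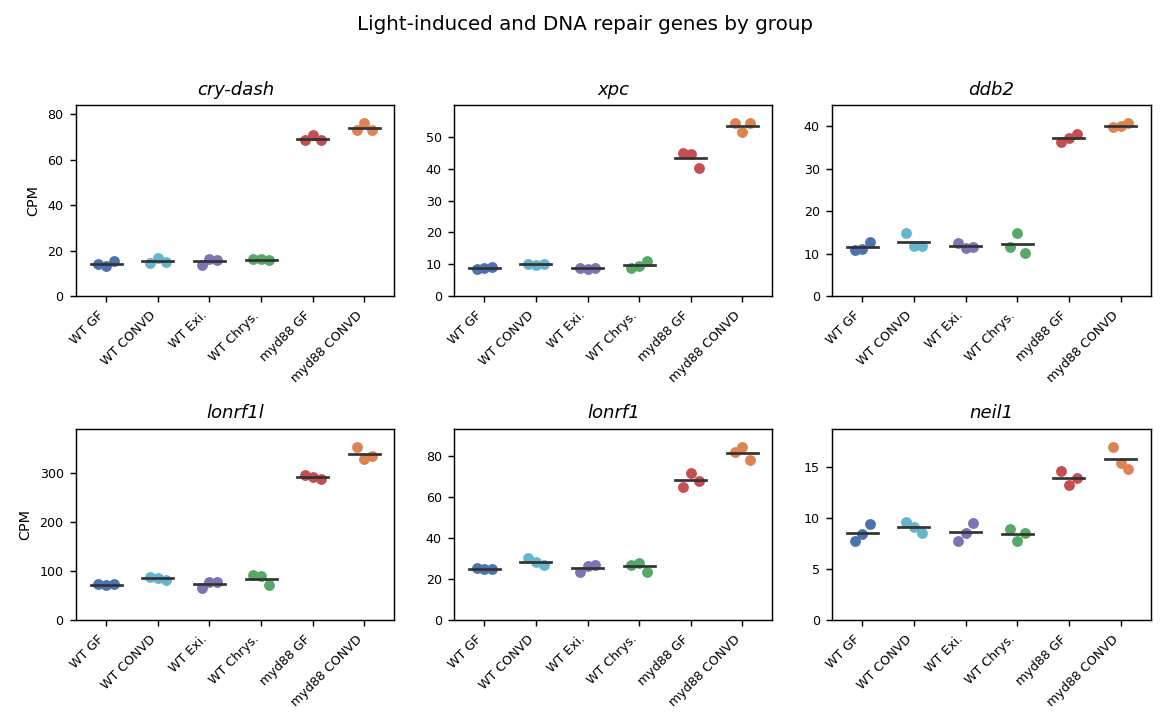
CPM of 6 light-induced or DNA repair genes in each of the 18 libraries (points) with the group means (lines), on linear axes that start at 0. *ddb2*, *lonrf1* and *neil1* were picked after their values were seen. In each panel all 6 mutant libraries lie above all 12 WT libraries.

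Of 13 further clock regulators tested, 2 were higher and 2 lower in mutants in both comparisons, a share near that of all genes (31.3% called in GF and 29.7% in CONVD larvae). The 2 *ciart* genes, repressors of Clock and Bmal in mouse, were higher: *ciarta* by 0.54 (SE 0.08, adjusted p = 2.95e-06) in GF and 0.57 (SE 0.08, adjusted p = 1.25e-06) in CONVD larvae on the log2 scale. *rorcb*, the duplicate of *rorca*, was lower, at 22.6 to 29.2 CPM in mutant and 70.8 to 100.4 CPM in WT libraries. Its log2 fold changes were -1.76 (SE 0.11, adjusted p = 9.04e-10) in GF and -1.72 (SE 0.11, adjusted p = 8.4e-10) in CONVD larvae, so that both *rorc* duplicates were lower in mutants. *fbxl3a*, the other gene that was lower, tags Cryptochromes for breakdown in mouse (log2 fold changes -0.38 and -0.49) and was named after its values were seen. None of the 13 was called in a comparison between colonized and GF larvae. Of 16 rows of pineal and photoreceptor genes (*crx* had 2), cells that hold strong clocks, 2 were higher and 10 lower in GF mutants and 2 were higher and 8 lower in CONVD mutants, with median log2 fold changes of -0.47 and -0.33. Of all genes, 15.1% were lower in GF and 14.5% in CONVD mutants. The 2 higher genes were the arrestins *arr3a* and *arr3b* of cones, and *gnat1*, the rod transducin, was lower (-1.04, SE 0.05, adjusted p = 9e-16 in GF larvae). The summed photoreceptor markers given above, which share *rho*, *gnat1* and *gnat2* with this list, were also lower in mutants.

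In WT larvae, few clock genes were called with conventionalization, though a larger share than of all genes. 3 of the 40 members (7.5%) were called between CONVD and GF larvae, 1 higher and 2 lower, where 1.63% of all genes were called (0.586% higher and 1.04% lower). 15 members (37.5%) did not overlap between the groups, beside 14.8% of all genes. The members' median log2 fold change was -0.04 and that of all genes was at 0.00 after rounding. The largest difference was that of the cryptochrome *cry1bb*, which went from 238, 226 and 211 CPM in GF to 97.8, 77.2 and 86.2 CPM in CONVD libraries. The groups did not overlap, and the log2 fold change was -1.37 (SE 0.11, adjusted p = 4.97e-07). *tefb* rose from 68.4, 62.5 and 65.2 CPM to 86.5, 84.4 and 87.6 CPM, again without overlap. Its log2 fold change was 0.40 (SE 0.05, adjusted p = 1.29e-05), which fell under the fold threshold without GF 2 (0.37). *nr1d1* fell from 178, 162 and 163 CPM to 139.5, 120.04 and 106 CPM. All CONVD libraries were below all GF libraries (log2 fold change -0.46, SE 0.11, adjusted p = 0.0354), but the call was lost without CONVD 2, without CONVD 3 and without each of the GF libraries in turn (log2 fold changes from -0.48 to -0.37), with no filter on low counts (edgeR, adjusted p = 0.0627) and on the 12 WT libraries alone (0.155). *per2* and *per1b* passed the adjusted p but not the fold threshold, at log2 fold changes of 0.27 (adjusted p = 0.0391) and -0.26 (adjusted p = 0.0153). *nr1d2a* was not called by this fit, at 222 to 278 CPM in CONVD and 288 to 391 CPM in GF libraries, without overlap. It was called lower with DESeq2 on all 18 libraries or on the compared groups alone, and with a replicate block, but in no other setting.

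Each mono-associated group was set against the same GF libraries as the CONVD group and shared some of its calls. With *Exiguobacterium*, 1 member (2.5%) was called, lower, where 0.757% of all genes were called (0.274% higher and 0.484% lower). The gene was *cry1bb*, at 172, 124 and 170.2 CPM, all below the GF libraries (log2 fold change -0.53, SE 0.10, adjusted p = 0.0202). This call was lost without GF 1 (-0.48) or GF 2 (-0.52), and with edgeR on the 2 groups alone (adjusted p = 0.172) or on the 12 WT libraries alone (adjusted p = 0.0767). 5 members (12.5%) did not overlap between these groups, beside 12.5% of all genes. *tefb* was at 80.1, 80.3 and 85.7 CPM, above all GF libraries, and passed the adjusted p (0.000738) with a log2 fold change of 0.33 that stayed under the threshold of fold.

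With *Chryseobacterium*, 4 members (10%) were called, all lower, where 1.51% of all genes were called (0.424% higher and 1.08% lower). 15 members (37.5%) did not overlap between these groups, beside 13% of all genes. *tefb* and *per1b* passed the adjusted p but not the fold threshold. *tefb* was at 79.4 to 83.6 CPM, above all GF libraries, and *per1b* at 147 to 184 CPM, below all GF libraries. *cry1bb* was at 86.8, 94.00 and 83.4 CPM, all below the GF libraries, with a log2 fold change of -1.35 (SE 0.11, adjusted p = 1.53e-06), and it was called without libraries 1 and 3 too (-1.25, adjusted p = 0.00335). *nr1d2a* was at 207, 233 and 190.2 CPM beside 391, 288 and 315 CPM in GF libraries, without overlap (log2 fold change -0.66, SE 0.13, adjusted p = 0.0173). *nr1d1* was at 125, 136 and 96.7 CPM (log2 fold change -0.49, SE 0.11, adjusted p = 0.0353). These 2 Rev-erb genes were below GF in all 3 libraries. *dbpb* was at 52.6, 65.7 and 49.01 CPM beside 84.7, 78.7 and 69.1 CPM in GF libraries, also without overlap (log2 fold change -0.46, SE 0.11, adjusted p = 0.031). Library 3 was the lowest of its group in all 3 of the genes last named. Without libraries 1 and 3 the log2 fold changes were -0.50 for *nr1d2a*, -0.29 for *nr1d1* and -0.23 for *dbpb*, and none of the 3 was called. Each of these 3 calls was also lost when 1 library was left out, be it GF 1, *Chryseobacterium* 1 or *Chryseobacterium* 3, and further without GF 2 or GF 3 for *nr1d1* and without GF 2 for *dbpb*. The log2 fold changes then lay between -0.63 and -0.51 for *nr1d2a*, between -0.51 and -0.35 for *nr1d1*, and between -0.44 and -0.37 for *dbpb*. With edgeR on the 12 WT libraries alone the adjusted p was 0.0912 for *nr1d2a*, 0.14 for *nr1d1* and 0.0661 for *dbpb*. On the compared groups alone edgeR called neither *nr1d1* nor *dbpb*, and with no filter on low counts *nr1d1* was not called.

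Between the colonized WT groups, *cry1bb* was the member that differed. It was higher with *Exiguobacterium* than in CONVD larvae (log2 fold change 0.85, SE 0.11, adjusted p = 0.00103), 1 member of 40 (2.5%) where 0.257% of all genes were called (0.24% higher and 0.0171% lower). With edgeR on these groups alone its adjusted p was 0.235. It was among 8 members (20%) whose libraries did not overlap, beside 12.4% of all genes. It was lower with *Chryseobacterium* than with *Exiguobacterium* (log2 fold change -0.82, SE 0.11, adjusted p = 0.00126), again 1 member (2.5%) where 0.77% of all genes were called (0.188% higher and 0.582% lower). Without *Chryseobacterium* libraries 1 and 3 this difference was -0.72 and was not called. Between *Chryseobacterium* and CONVD larvae 0 members were called with edgeR and with DESeq2, and 0 had an unadjusted p below 0.05, where 0.116% of all genes were called (0.0728% higher and 0.0428% lower). 4 members (10%) did not overlap between these groups, beside 9.9% of all genes. The *cry1bb* difference between these 2 groups was 0.03 (95% interval -0.21 to 0.26).

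**Figure D4:**
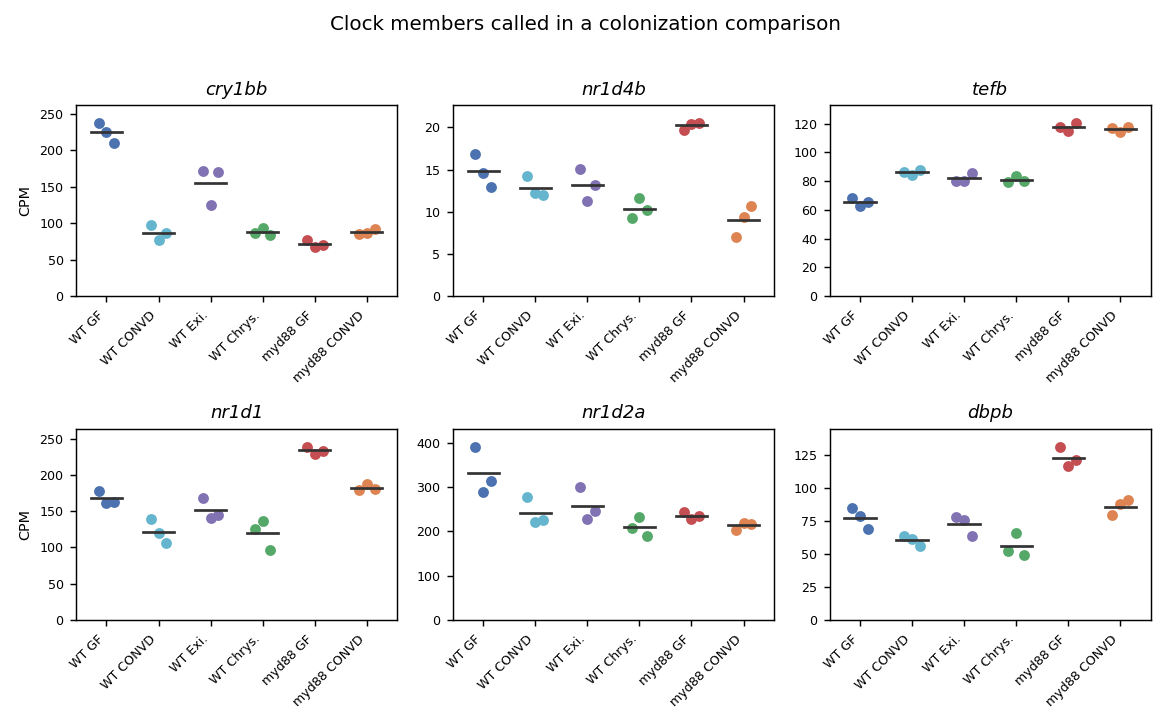
CPM of 6 clock members in each of the 18 libraries (points) with the group means (lines), on linear axes that start at 0. *cry1bb* is highest in the 3 WT GF libraries, intermediate with *Exiguobacterium* and low in all other groups, mutant GF included, while *nr1d4b* is highest in mutant GF and falls in mutant CONVD larvae.

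In *myd88* mutants, 3 members (7.5%) were called between CONVD and GF larvae, 1 higher and 2 lower, where 18 genes (0.077% of all) were called (0.0342% higher and 0.0428% lower). 20 members (50%) did not overlap between the groups, beside 16.3% of all genes. *nr1d4b* (ENSDARG00000059370), a further Rev-erb gene of fish, went from 19.7, 20.4 and 20.5 CPM in GF to 7.05, 9.43 and 10.7 CPM in CONVD libraries. All CONVD libraries were below all GF libraries, and the log2 fold change was -1.18 (SE 0.13, adjusted p = 4.79e-06). *dbpb* went from 131, 116 and 121 CPM to 79.5, 87.6 and 90.9 CPM (log2 fold change -0.52, SE 0.10, adjusted p = 0.0376). *cry5* went from 40.04, 42.7 and 40.2 CPM to 54.6, 54.99 and 53.96 CPM (log2 fold change 0.41, SE 0.08, adjusted p = 0.0293). Neither gene overlapped between the groups, yet both calls were lost whichever of the 6 libraries was left out, while their log2 fold changes stayed between -0.56 and -0.46 for *dbpb* and between 0.40 and 0.45 for *cry5*. *dbpb* was not called with no filter on low counts either (edgeR, adjusted p = 0.0565). With the 6 mutant libraries fitted alone, 6 members were called, 1 higher and 5 lower, of 143 genes in all, and *nr1d4a*, *bhlhe41* and *per1a* joined *nr1d4b* and *dbpb* as lower in CONVD mutants. *cry2* and *cry1ba* passed the adjusted p (0.0185 and 0.0134) but not the fold threshold, at log2 fold changes of -0.29 and 0.28.

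The CONVD and GF comparisons of the 2 genotypes share no library, and several members had differences of the same sign in both, most of them under the fold threshold. 8 of the 40 members (20%) had their CONVD libraries wholly to the same side of their GF libraries in WT larvae and in mutants, where 1.58% of all genes did, a count chosen after the values were seen. 7 of the 8 were lower in CONVD larvae: *nr1d1*, *nr1d2a*, *nr1d2b*, *per1a*, *per1b*, *cry2* and *dbpb*. *tefa* was slightly higher in both, with means of 109 CPM in GF and 116 CPM in CONVD WT libraries, and of 369 and 399 CPM in mutants. It passed the adjusted p in neither genotype. The log2 fold changes of *per1b* were -0.26 (95% interval -0.39 to -0.13) in WT larvae and -0.26 (-0.38 to -0.13) in mutants. Those of *per1a* were -0.33 (-0.55 to -0.10) and -0.38 (-0.60 to -0.17), and those of *nr1d1* were -0.46 (-0.70 to -0.23) and -0.36 (-0.59 to -0.13). These intervals lie below 0 in both genotypes, as do those of *dbpb*, *nr1d2b* and *cry2*. That of *nr1d2a* in mutants, -0.41 to 0.13, holds 0. A single member, *cry1bb*, was apart in opposite directions. Every WT CONVD library was deeper than every WT GF library, while the depths of the mutant GF and CONVD libraries overlapped. The part of depth was not tested. Nor was that of any difference in collection hour between GF and CONVD pools, since no label gives the hour.

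**Figure D5:**
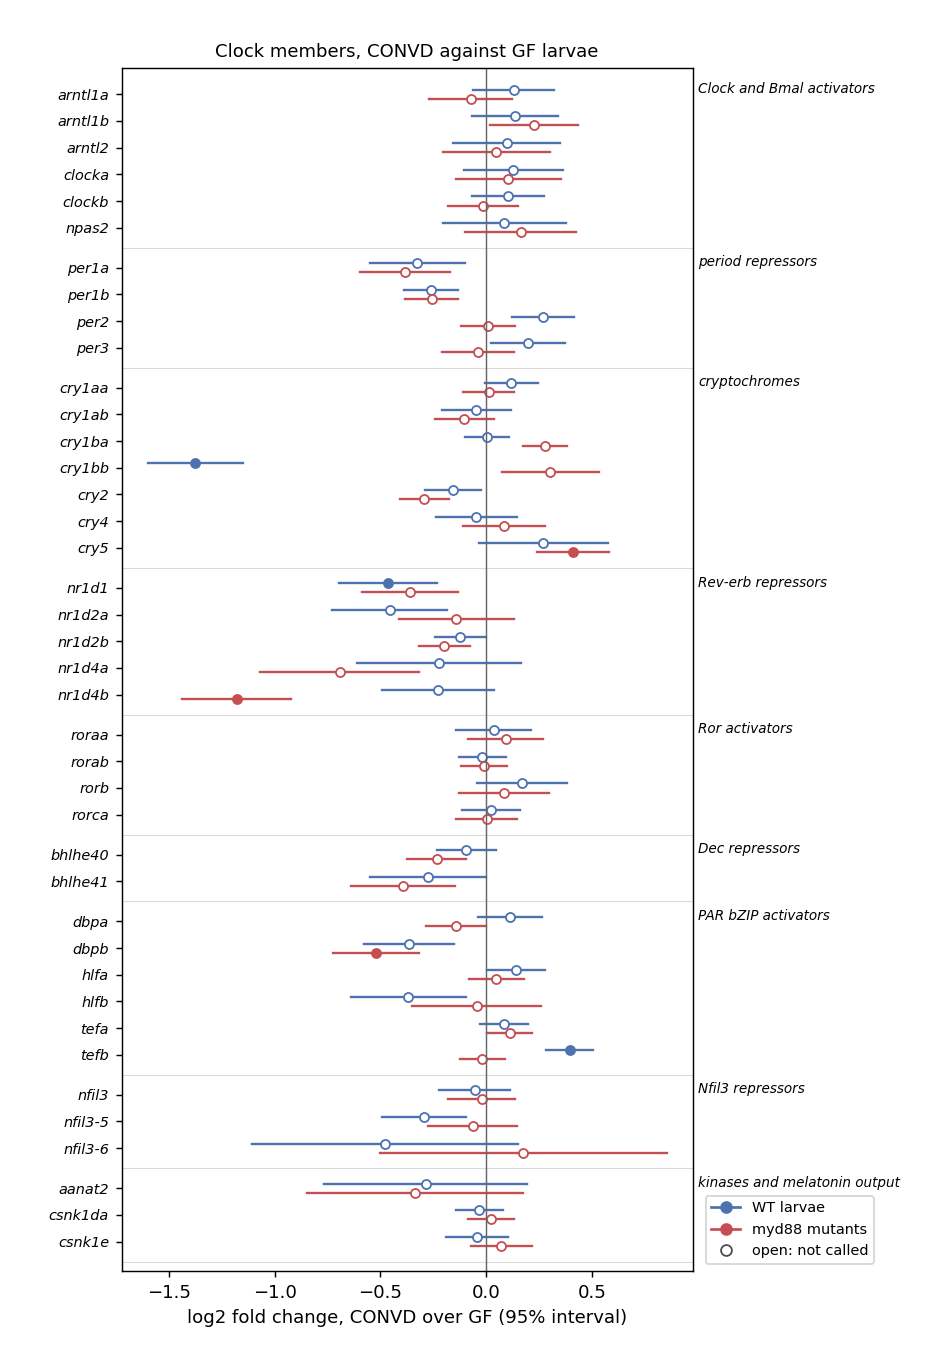
Log2 fold change of CONVD over GF larvae for the 40 clock members tested, grouped by role, in WT larvae (blue) and *myd88* mutants (red), with 3 libraries per group. Bars are 95% intervals of the fit and filled points were called. *cry1bb* lies far to the left in WT larvae and right of 0 in mutants, *nr1d4b* lies far to the left in mutants, and *per1a*, *per1b*, *nr1d1* and *dbpb* lie left of 0 in both.

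Conventionalization had a different effect in mutants than in WT larvae, by the test of that difference, for 3 members (7.5%), 1 positive and 2 negative, where 0.813% of all genes were called (0.646% positive and 0.167% negative). For *cry1bb* it was 1.68 (SE 0.15, adjusted p = 1.12e-05) on the log2 scale: the gene fell in WT larvae, and in mutants, whose GF libraries were already below every colonized WT library, the log2 fold change was 0.30 (95% interval 0.07 to 0.53). For *tefb* the difference was -0.41 (SE 0.08, adjusted p = 0.00223), where the gene rose in WT larvae and in mutants was at 118, 115 and 121 CPM in GF and 117, 114 and 118 CPM in CONVD libraries. Mutant GF libraries held *tefb* above and *cry1bb* below every library of the colonized WT groups. For *nr1d4b* the difference was -0.95 (SE 0.18, adjusted p = 0.00346). In WT larvae *nr1d4b* was at 16.8, 14.6 and 12.95 CPM in GF and 14.2, 12.2 and 11.98 CPM in CONVD libraries (log2 fold change -0.23, 95% interval -0.49 to 0.04). Mutants were therefore above WT larvae when GF (log2 fold change 0.44, SE 0.13, adjusted p = 0.00475) and below them when CONVD (-0.51, SE 0.13, adjusted p = 0.00205). The first of these calls was lost without WT GF 3 (0.34) and the second without mutant CONVD 1 (-0.34). The 3 differences between responses were called whichever of the 12 libraries was left out.

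Of the genes that Rev-erb proteins repress in mouse, the glucose-6-phosphatase genes *g6pca.1* and *g6pca.2* were lower in CONVD than in GF WT larvae, where 1.04% of all genes were called lower. The log2 fold change was -0.93 (SE 0.20, adjusted p = 0.00467) for *g6pca.1* and -1.17 (SE 0.14, adjusted p = 0.000297) for *g6pca.2*. *g6pca.1* was also lower with *Exiguobacterium*, and *g6pca.2* with *Chryseobacterium*. *nr1d1* was also lower in the CONVD and *Chryseobacterium* groups. Both of these *nr1d1* calls were lost without any 1 of the GF libraries. In mutants the log2 fold changes between CONVD and GF larvae were -0.12 for *g6pca.1* and -0.27 for *g6pca.2*, and neither was called. Between the genotypes, *gys2*, the liver glycogen synthase, was higher in mutants by 0.82 (SE 0.07, adjusted p = 3.06e-11) in GF and 0.77 (SE 0.06, adjusted p = 5.26e-11) in CONVD larvae on the log2 scale, and *pck1*, an enzyme of glucose synthesis, by 1.29 and 1.39. *nr1d1* was higher in mutants in both comparisons too. Whether Rev-erb repression plays a part was not tested. *g6pca.1* and *g6pca.2* are close copies of each other, and how reads matching both were counted is not given in the sources used here.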

How the data were processed

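Total RNA from pools of whole zebrafish larvae was sequenced after unstranded poly(A) library preparation, in 18 libraries of 6 groups with 3 each. The deposited values were whole counts per gene in each library, made by the authors with the GeneTiles server, and with Bowtie2, SAMtools and DESeq named in the processing notes, with no normalization. In 9 of the files deposited by the authors a single unnamed last entry was not whole, and only for that entry was the column put under expected counts. Every gene held a whole number of reads, and the 9 entries, which name no gene, were left out. The study's methods name the GRCz10 genome, and no coordinates are printed. The treatment of reads that match several genes is not given in the sources used here.

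Counts were fitted in R 4.3.3 with edgeR 4.0.16 (quasi-likelihood, robust, TMM) over all 18 libraries with 1 coefficient per group and 12 residual degrees of freedom. Genes were kept by filterByExpr (minimum count 10, minimum total 15). p-values are two-sided and Benjamini-Hochberg adjusted over all 23367 genes tested, and intervals are 95%. With 3 against 3 libraries an exact permutation test cannot go below p = 0.1, so none is given for single genes. The steps were tested on simulated data. Alternatives were DESeq2 1.42.0, other size factors, no filter, no fold threshold, the compared groups or the WT libraries alone, a replicate block, and each library left out.

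The members, their roles and the other gene lists were chosen with earlier results of these data known, so counts over them are descriptions. Members called in any comparison were given with their values in the groups compared, and of the other lists up to 3 called genes with the lowest p were named unless stated otherwise. Symbols came from the files, and older names from RefSeq. One result of the list of genes repressed by Rev-erb is not reported here, so no counts over that list are given.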

Additional observations from a re-analysis of the deposited data

Results flagged for a closer look

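The response of 3 clock genes to conventionalization differed between *myd88* mutants and WT larvae by the test of the difference itself (edgeR, adjusted over all genes tested). The mutant minus WT response was 1.68 for *cry1bb* (SE 0.15, adjusted p = 1.12e-05), -0.95 for *nr1d4b* (SE 0.18, adjusted p = 0.00346) and -0.41 for *tefb* (SE 0.08, adjusted p = 0.00223) on the log2 scale. Each compared 3 GF and 3 CONVD libraries per genotype. Genotype cannot be told apart from the parents of the larvae.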

How the results depend on the processing

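Of 63 calls of clock members over the 10 comparisons, 48 were kept under every alternative tried and with any 1 library left out, and no call reversed its direction. Most of the 63 were calls between genotypes (26 in GF and 21 in CONVD larvae). Among calls between colonized and GF larvae, only those of *cry1bb* in CONVD and *Chryseobacterium* WT larvae and of *nr1d4b* in mutants were kept throughout. Counts of members called moved most where few were called. For WT CONVD against GF the count was 3, and 5 without a fold threshold. For *Exiguobacterium* against GF it was 1, 2 without a fold threshold, and 0 with edgeR on the compared groups alone or on the 12 WT libraries alone. For *Chryseobacterium* against GF it was 4, 2 with edgeR on the compared groups alone, 1 on the 12 WT libraries alone and 1 without *Chryseobacterium* libraries 1 and 3. For mutant CONVD against GF it was 3, 5 without a fold threshold, and 6 with edgeR or 5 with DESeq2 on the compared groups alone. For *Exiguobacterium* against CONVD it was 1, and 0 with edgeR on the compared groups alone. For *Chryseobacterium* against *Exiguobacterium* it was 1, and 0 without *Chryseobacterium* libraries 1 and 3. The cause was not tested, although the last setting leaves 1 library in its group, assumed to vary like the other groups.

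With 1 library left out at a time, the counts ranged from 1 to 3 for WT CONVD against GF, from 0 to 2 for *Exiguobacterium* against GF, from 1 to 5 for *Chryseobacterium* against GF, at 1 for mutant CONVD against GF, at 3 for the response difference, from 24 to 26 and from 20 to 23 between genotypes in GF and CONVD larvae, at 1 for *Exiguobacterium* against CONVD, at 0 for *Chryseobacterium* against CONVD, and from 1 to 3 for *Chryseobacterium* against *Exiguobacterium*.

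Correlations between the deviations of same-numbered libraries were small, from -0.09 to 0.18. In comparisons within a genotype most were positive, and the same-numbered library was mostly the best match. Between GF mutants and GF WT larvae all were negative (-0.09, -0.01 and -0.07). Whether replicate numbers mark a shared batch was not tested. With the replicate number as a block the counts were 4, 1 and 5 for CONVD, *Exiguobacterium* and *Chryseobacterium* against WT GF, 3 for mutant CONVD against GF, 3 for the response difference, 26 and 21 between genotypes, and 1, 0 and 1 among the colonized WT groups. The members with the fewest reads were *nr1d4a*, at 16 to 74 reads per library, and *aanat2*, at 20 to 55.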
